A study of Mus musculus with 4 samples.

Results

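The β-catenin gene Ctnnb1, the 4 TCF/LEF genes Tcf7, Lef1, Tcf7l1 and Tcf7l2, the scaffold genes Axin1 and Axin2, and the Wnt-responsive genes Myc, Wisp1 and Nkd2 form the nuclear arm of Wnt signaling and its readout. These 10 genes were chosen by symbol, with earlier results of these data known, as were the gene lists used below. All 10 were found among the 24346 rows of the expression table. RNA-seq had been carried out on mBMSCs, the adherent mesenchymal stem/progenitor cells grown from bone marrow of C57BL/6 mice at 3 months of age. In 2 samples the cells were transfected with a scrambled siRNA (siScr), and in 2 samples with siRNA against ZBP1 (siZBP1), a sensor of nucleic acids, and RNA was collected 72 h later. Expression is given as FPKM, a fragment count scaled to the length of the transcript and to the mapped fragments of the sample. The cells were primary cultures, both groups received the same transfection reagent, and neither the number of mice behind a sample nor which of the study's siRNAs was sequenced is stated. Nothing states that replicates of a group came from separate cultures, so that p-values measure only the spread between these samples.

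In the absence of Wnt, β-catenin is held in a destruction complex built on AXIN1 or AXIN2 and APC, phosphorylated by CK1 and GSK3, and degraded. When a Wnt ligand engages its receptors, β-catenin accumulates, enters the nucleus and binds TCF/LEF proteins on DNA, which otherwise recruit TLE corepressors. TCF7 and LEF1 are mostly known as activators and TCF7L1 as a repressor, and the pathway drives the commitment of marrow stromal cells to osteoblasts. Because β-catenin is controlled by protein stability and location, the level of its mRNA does not report its activity.

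Zbp1, the targeted gene, was at 86.0 and 62.0 FPKM in the siScr replicates and at 11.5 and 11.6 FPKM in the siZBP1 replicates, as the labels require. Depth is not given, and the spacing of the lowest values placed it roughly between 11 and 19 M fragments per sample. The cultures also held macrophages: all 14 macrophage genes listed and found were above 1 FPKM on average, and Csf1r, their growth factor receptor, was at 467 to 584 FPKM, against 32.0 to 46.2 FPKM for the stromal receptor Pdgfrb. The summed level of the macrophage list was 6798 to 7854 FPKM in siScr cells and 10445 to 11153 FPKM in siZBP1 cells. By the limma test described below, 7 of 14 genes were higher and 0 lower, against 13.5% and 14.8% of all genes tested. The summed level of 15 mesenchymal stromal genes was 6261 to 7351 FPKM in siScr cells and 4919 to 4955 FPKM in siZBP1 cells. Of the 14 stromal genes tested, 5 were lower and 1, Nt5e, higher, against 14.8% and 13.5% of all genes tested. Nt5e rose from 4.11 ± 1.94 to 21.0 ± 0.373 FPKM (SD, n = 2 each). Without its most abundant gene, the collagen gene Col1a1, the stromal sum was 3741 to 4285 FPKM and 3764 to 3791 FPKM and no longer separated the groups, while the macrophage sum without Lyz2, a lysozyme gene, was 3984 to 4207 FPKM and 5043 to 5283 FPKM. T cells also use Tcf7 and Lef1. Of 12 T cell genes 11 were in the table, with a summed level of 56.1 to 60.2 FPKM in siScr cells and 76.6 to 78.6 FPKM in siZBP1 cells. The 3 with a mean of at least 1 FPKM, Il7r, Cd28 and Cd4, were all higher by the same limma test, against 13.5% of all genes. The other 8 averaged under 1 FPKM and were not tested. Of the genes of the T cell receptor complex, Cd3d was at 0.0729 to 0.230 FPKM, Cd3e at 0 in 3 of 4 samples and Cd3g at 0 in all 4. In bulk RNA, fewer cells of a type and less RNA per cell cannot be told apart, and the part of the macrophage, stromal and T cell list shifts in the results below was not tested.

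Of the 10 genes, 9 had a mean of at least 1 FPKM and were tested by limma on log2(FPKM + 1), with p-values adjusted by Benjamini-Hochberg over 11959 genes. Tcf7, Myc and Wisp1 fell in siZBP1 cells and 0 of the 9 rose, with 6 not past the threshold. Across all genes tested, 14.8% were lower and 13.5% higher by the same rule. The median log2 fold change was -0.34 over the 9 genes, against 0.0045 over all genes. At an unadjusted limma p under 0.05, 6 of the 9 were different, Ctnnb1 upward and the rest downward. The share of all genes at that level was not counted. It is larger than the 28.3% that passed the stricter adjusted threshold in either direction. The count of 6 therefore has no share to be set against. The siZBP1 values lay below both siScr values for 5 of the 9 and above both for 2, as they did for 33.7% and 34.7% of all genes tested, or 68.4% in either direction. By the ratio of the mean FPKM, 4 of the 10 genes were over 1.5-fold lower and 1, Lef1, over 1.5-fold higher. Among genes with both means above 0, 13.8% were lower and 10.7% higher by that ratio, and among the 11959 genes tested 8.65% and 4.21%. For a gene taken alone, the smallest two-sided p that 2 samples a group allow in an exact permutation test is 0.333, and each call therefore rests on the variance limma shares between genes. All 3 calls were lost when either siZBP1 replicate was left out, which lowered the number of genes called lower in the whole table from 1766 to 23 and 38.

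**Figure D1:**
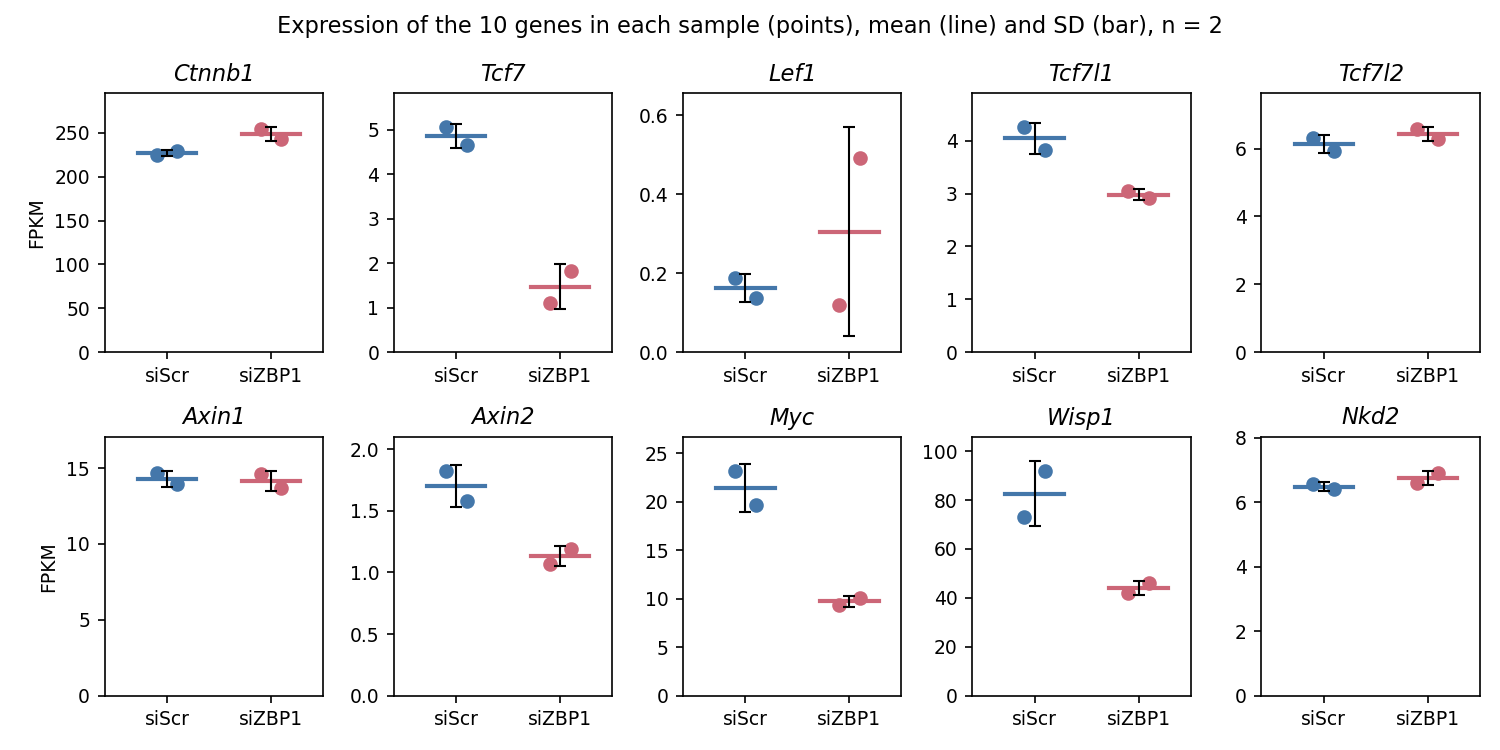
FPKM of each of the 10 genes (vertical axes, starting at 0 and scaled per gene) in the 2 siScr and 2 siZBP1 samples, with points for samples, lines for means and bars for the SD. Tcf7, Myc and Wisp1 sit clearly lower in both siZBP1 samples, whereas Ctnnb1, Axin1, Tcf7l2 and Nkd2 sit at similar heights and Lef1 is split by 1 siZBP1 sample.

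Ctnnb1 was the most abundant of the genes. Its expression was 224 and 229.7 FPKM in the siScr replicates and 254 and 243 FPKM in the siZBP1 replicates. Both siZBP1 values were above both siScr values, but by a small step. The limma log2 fold change was 0.13 (standard error 0.04, 95% interval 0.02 to 0.24), and it did not pass the threshold (adjusted p = 0.0859). The gene lies on chromosome 9 from 120929216 to 120960507 of GRCm38, and 759 bases of its exons overlap those of Ulk4 on the opposite strand, which was at 0.744 FPKM on average. Its paralog Jup, which encodes plakoglobin, a catenin of desmosomes, was at 4.40 ± 0.842 FPKM in siScr cells and 3.13 ± 0.322 FPKM in siZBP1 cells (SD, n = 2 each), and its limma log2 fold change, -0.38 with a standard error of 0.14, missed the threshold too.

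Among the TCF/LEF genes, Tcf7 showed the largest difference. Tcf7 encodes TCF1, a factor of T cells and stromal cells that is also induced by Wnt signaling. It was at 5.06 and 4.67 FPKM in the siScr replicates and at 1.11 and 1.83 FPKM in the siZBP1 replicates. The groups were far apart, with the siZBP1 replicates differing from each other more than the siScr replicates did. The mean FPKM was 30.3% of that in siScr cells, and the limma log2 fold change was -1.26 (standard error 0.17, adjusted p = 0.0110). This call was lost whichever sample was left out, with limma adjusted p-values of 0.0717 and 0.0536 without siScr replicates 1 and 2 and of 0.0816 and 0.0639 without siZBP1 replicates 1 and 2. By the rough depth and the length of its longest coding transcript, these values stand for about 176 and 215 fragments in the siScr samples and 29 and 79 in the siZBP1 samples, fewest in siZBP1 replicate 1. Tcf7 lies on chromosome 11 from 52252371 to 52283014 and has 2 annotated transcripts.

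Tcf7l1, which encodes TCF3, was at 4.26 and 3.83 FPKM in the siScr replicates and at 3.05 and 2.91 FPKM in the siZBP1 replicates. Each siZBP1 value was below each siScr value. The log2 fold change of -0.34 (standard error 0.10, 95% interval -0.59 to -0.09) did not pass the limma threshold (adjusted p = 0.0606), although it did in limma without a variance trend (adjusted p = 0.0408). Tcf7l2, which encodes TCF4 and is not the gene named Tcf4, was at 6.31 and 5.94 FPKM and at 6.57 and 6.28 FPKM in the same order. These values overlapped, and the log2 fold change was 0.06 with a 95% interval from -0.14 to 0.26 (limma adjusted p = 0.609).

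Lef1 was hardly expressed. It was at 0.188 and 0.137 FPKM in the siScr replicates and at 0.119 and 0.492 FPKM in the siZBP1 replicates, or roughly 9, 9, 4 and 30 fragments. The higher mean in siZBP1 cells came from replicate 2 alone, since replicate 1 was below both siScr samples, and no difference was detectable at this depth. Lef1 was under the limit for testing, and without that limit its limma log2 fold change was 0.15 (standard error 0.15, adjusted p = 0.554). An antisense gene, Gm43352, shares 1208 exonic bases with Lef1, and whether strand was used in counting is not stated.

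The levels of the 4 TCF/LEF genes summed to 15.2 ± 0.873 FPKM in siScr cells and 11.2 ± 0.468 FPKM in siZBP1 cells (SD, n = 2 each). Comparing genes by FPKM rests on the transcript length used for each gene, which is not given. Tcf7l2 has 22 annotated transcripts and Tcf7 has 2. Tcf7 made up 32.0% of this sum in both siScr replicates and 10.3% and 15.9% in the siZBP1 replicates. Tcf7l2 made up 39.9% and 40.7% in siScr cells and 60.5% and 54.5% in siZBP1 cells. The share of Tcf7l1 was 26.6% ± 0.432 and 26.7% ± 1.99 (SD, n = 2 each). Tcf7l2 alone thus exceeded the other 3 together in both siZBP1 samples and in neither siScr sample. The ratio of Tcf7 to Tcf7l2 was 0.801 and 0.786 in siScr cells and 0.169 and 0.292 in siZBP1 cells. These shares are described without a test. FPKM per gene does not separate the truncated forms of these factors that lack the β-catenin binding domain.

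**Figure D2:**
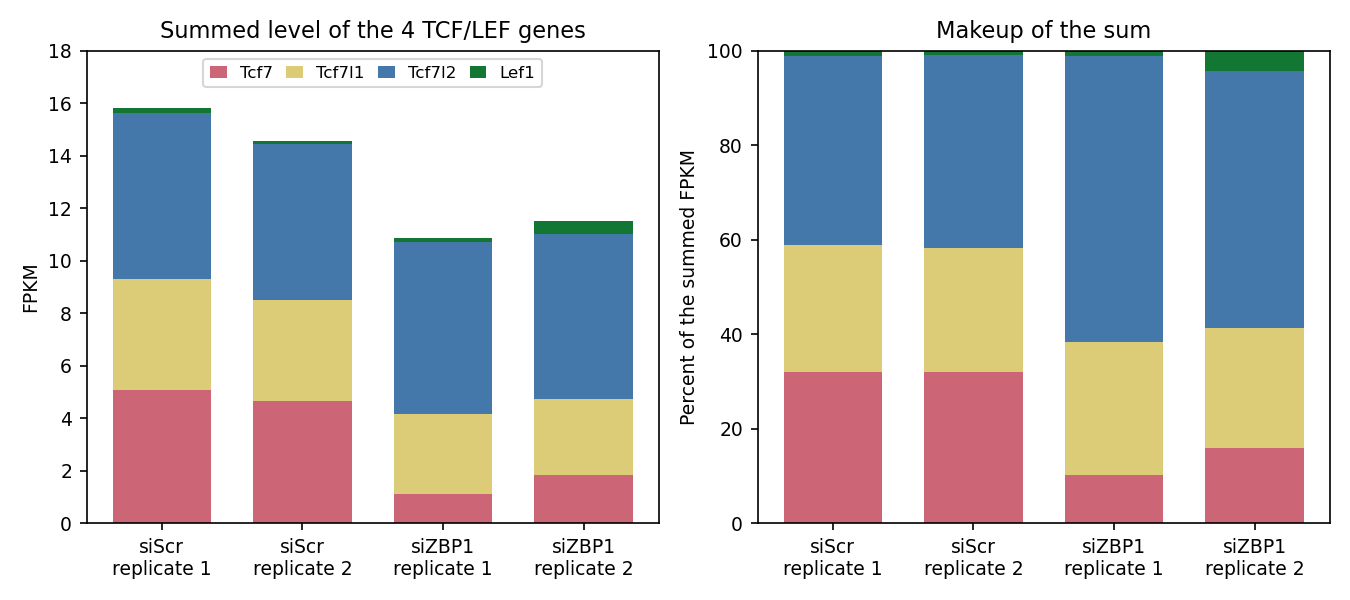
Stacked bars of FPKM (left) and of the percent of the summed FPKM (right) for Tcf7, Tcf7l1, Tcf7l2 and Lef1 in each of the 4 samples. The Tcf7 segment shrinks from 32.0% of the sum in siScr samples to 10.3% and 15.9% in siZBP1 samples, while the Tcf7l2 segment keeps its height in FPKM.

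TCF/LEF proteins bind a short core, which was spelled as CTTTGAA in its first form, as CTTTGAT in another, as CTTTGTA in the next and as CTTTGTT in the last. These 4 forms cannot match at the same position of a strand, and they were sought on both strands in RefSeq promoter windows (GRCm38.p6), from 250 bases before to 50 bases after a start site. Of the 10 genes, 7 had a window, and Axin1, Myc and Wisp1 had none. Of their 13 windows 2 held a match, against 16.9% of all 32851 windows. They belong to internal start sites of Lef1 and Tcf7l2, and are shown because they are the matches found near starts of these genes. Counted along the gene, the Lef1 match begins 147 bases before the start, and it is on the strand opposite to the gene. Its printed stretch, with the bases on each side, lies at chr3:131156137-131156163 on the minus strand. The Tcf7l2 match begins 14 bases before the start, on the strand of the gene. Its printed stretch lies at chr19:55895297-55895323 on the plus strand. Capitals mark the core and lower case the 10 bases on each side.
Lef1: tgcaatcctaCTTTGTAttctgaggtt
Tcf7l2: aaatatcaggCTTTGTTcttttgattg
The windows of Ctnnb1, Tcf7, Tcf7l1, Axin2 and Nkd2 held no match of these letters.

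Of the AXIN scaffolds, Axin1, the form present in most cells, did not differ detectably. It was at 14.7 and 13.9 FPKM in siScr cells and at 14.6 and 13.7 FPKM in siZBP1 cells, with overlapping values and a limma log2 fold change of -0.01 (95% interval -0.18 to 0.16, adjusted p = 0.904). Axin2, which is transcribed in response to Wnt and feeds back on β-catenin, was at 1.82 and 1.58 FPKM in siScr cells and at 1.07 and 1.19 FPKM in siZBP1 cells. Both siZBP1 values were below both siScr values, and the mean was 1.51-fold lower. The log2 fold change of -0.34 (standard error 0.13, 95% interval -0.68 to -0.01) did not pass (limma adjusted p = 0.110), and did pass in limma without a variance trend (adjusted p = 0.0459). The added 1 compresses the change of so low a gene, which was -0.55 with a pseudocount of 0.1 (limma adjusted p = 0.148). The ratio of Axin1 to Axin2 was 8.03 and 8.80 in siScr cells and 13.6 and 11.5 in siZBP1 cells.

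Axin2 was also the study's RT-qPCR readout of Wnt3a treatment. Its primers are shown to place that assay in the gene, 5′ to 3′ and in lower case.
Axin2 forward: aacctatgcccgtttcctcta
Axin2 reverse: gagtgtaaagacttggtccacc
In GENCODE M21 both match the longest Axin2 transcript within exon 2 of 11, in a product of 112 bases, and 4 of its 7 annotated transcripts hold both. The RNA-seq samples had no added Wnt3a by their labels, and their Axin2 values are per gene.

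Nkd2 encodes a Naked cuticle protein, which binds Dishevelled and dampens Wnt signals. It was at 6.58 and 6.40 FPKM in the siScr replicates and at 6.61 and 6.91 FPKM in the siZBP1 replicates. These values nearly touched, and the log2 fold change was 0.05 with a 95% interval from -0.14 to 0.24 (limma adjusted p = 0.639). Nkd1, its paralog, was at 0.711 and 0.687 FPKM and at 0.433 and 0.237 FPKM in the same order, lower in each siZBP1 sample but too low to be tested.

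Myc, the transcription factor of growth and ribosome production, was at 23.2 and 19.7 FPKM in the siScr replicates and at 9.34 and 10.1 FPKM in the siZBP1 replicates. The siZBP1 samples lay close together and well under both controls. The mean fell 2.21-fold, and the limma log2 fold change was -1.06 (standard error 0.10, adjusted p = 0.00526). Without siScr replicates 1 and 2 the limma adjusted p was 0.0333 and 0.0214, and without siZBP1 replicates 1 and 2 it was 0.0877 and 0.0728. Myc lies on chromosome 15 from 61985391 to 61990374. It was the MYC gene of these cells, since Mycl was at 0.0679 to 0.299 FPKM and Mycn was at 0 in 2 of 4 samples and at most 0.0231 FPKM.

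Wisp1, a secreted matricellular protein of the CCN family that is induced by Wnt and named Ccn4 in the annotation, was at 73.2 and 92.0 FPKM in the siScr replicates and at 41.8 and 46.0 FPKM in the siZBP1 replicates. The controls differed from each other by more than the siZBP1 samples did, without overlap between the groups. The mean fell 1.88-fold and the limma log2 fold change was -0.89 (standard error 0.12, adjusted p = 0.0113). With siScr replicates 1 and 2 left out the limma adjusted p was 0.0312 and 0.0300, and with siZBP1 replicates 1 and 2 left out it was 0.118 and 0.0942.

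**Figure D3:**
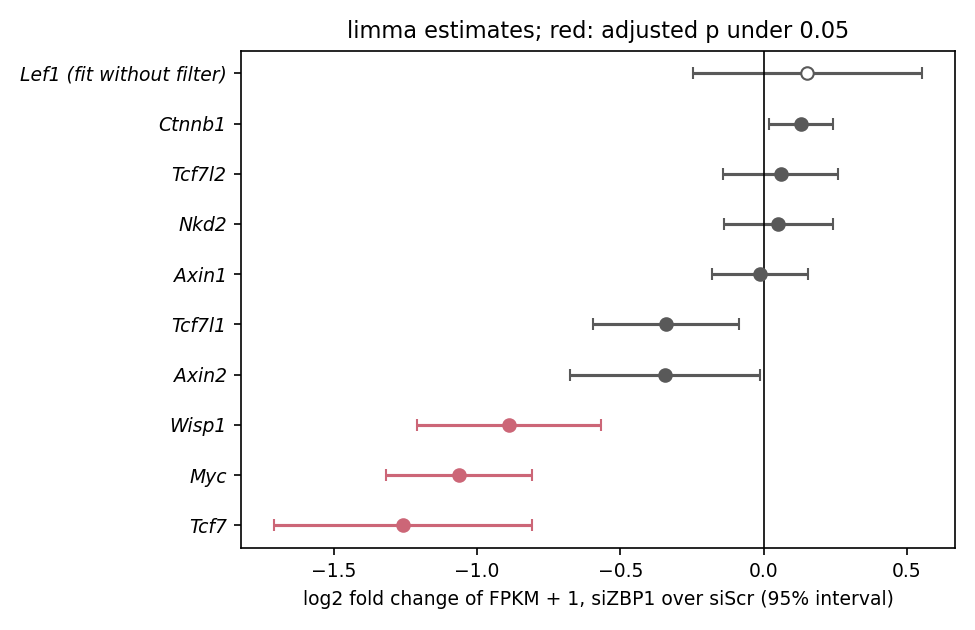
Limma log2 fold changes of FPKM + 1 (horizontal axis, siZBP1 over siScr) with 95% intervals for 9 tested genes, and for Lef1 from the fit without a filter (open point). Red marks an adjusted p under 0.05. Tcf7, Myc and Wisp1 lie between -1.26 and -0.89, and Axin1, Nkd2 and Tcf7l2 lie within 0.06 of 0.

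By level, the siScr samples ran from Ctnnb1 through Wisp1, Myc, Axin1, Nkd2, Tcf7l2, Tcf7, Tcf7l1 and Axin2 to Lef1, and no neighbours in this order overlapped between their replicates. In siZBP1 cells Axin1 stood above Myc, and Tcf7l1 above Tcf7. There Tcf7 and Axin2 overlapped. The profiles over the 4 samples nearest to that of Tcf7, by Euclidean distance between centred log2(FPKM + 1) values, were those of Neo1 (0.126), Sepn1 (0.134) and Kcnma1 (0.146). Those nearest to Myc were Rai14 (0.0268), Rnd3 (0.0552) and Vcl (0.0553), and those nearest to Wisp1 were F2r (0.0364), Rtn2 (0.0900) and Nes (0.0994). These neighbours are a description only. With 2 samples a group, a similar fold change places profiles near each other, and 1766 genes were called lower. Shared regulation was not tested.

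The destruction complex and its regulators, which act for or against it, were represented by 26 genes, of which 24 were tested. Of these, 1 fell and 2 rose, against 14.8% and 13.5% of all genes, and the median log2 fold change was 0.05. Apc, the large scaffold that AXIN joins, fell from 13.3 ± 0.0560 to 10.5 ± 0.842 FPKM (SD, n = 2 each), or -0.31 on the log2 scale (limma adjusted p = 0.0404). This call was lost with no filter on low genes (limma adjusted p = 0.0618), with values rescaled to one sum (0.0509) and without a variance trend (0.0543). Frat2, a GSK3-binding protein, rose from 1.34 ± 0.136 to 2.63 ± 0.290 FPKM, and Tnks2, a tankyrase that marks AXIN for degradation, from 31.7 ± 0.0723 to 40.6 ± 0.126 FPKM (SD, n = 2 each). The limma adjusted p was 0.0260 for Frat2 and 0.00884 for Tnks2. Of the kinase genes, Gsk3b was at 26.0 and 25.2 FPKM in siScr cells and 23.5 and 24.1 FPKM in siZBP1 cells, lower in each siZBP1 sample without passing the threshold (limma adjusted p = 0.193). Csnk1a1 was at 120.4 and 108.9 FPKM and at 117.9 and 118.5 FPKM in the same order, with overlapping values.

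Of 29 nuclear cofactors, 28 were tested, 3 fell and 2 rose, with a median log2 fold change of -0.07. These are smaller shares than the 14.8% and 13.5% of all genes. Pygo1, a plant homeodomain protein that joins β-catenin through BCL9, fell from 2.03 ± 0.168 to 1.16 ± 0.00710 FPKM (SD, n = 2 each), or -0.49 on the log2 scale (limma adjusted p = 0.0415). This call was lost with the replicate block (limma adjusted p = 0.0718), with a pseudocount of 0.1 (0.0536) and with quantile normalization (0.0701). Cby1, an antagonist that competes for β-catenin, rose from 5.89 ± 0.183 to 8.62 ± 0.367 FPKM. Tcf4, an E-box protein that was in this list by name, rose from 29.6 ± 0.896 to 43.1 ± 1.07 FPKM (SD, n = 2 each).

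Of 17 catenins and cadherins, 8 were tested, 3 fell and 1 rose, against 14.8% and 13.5% of all genes. Ctnnd1, the p120 catenin that keeps cadherins at the membrane, fell from 127.1 ± 4.27 to 88.2 ± 2.86 FPKM, and Cdh11, the cadherin of osteoblasts, from 52.1 ± 1.05 to 40.1 ± 0.823 FPKM (SD, n = 2 each). Cdh13, an anchored cadherin without a cytoplasmic tail, rose from 3.13 ± 0.0933 to 4.75 ± 0.294 FPKM (SD, n = 2 each). Ctnnb1, of the same list, was 1.10-fold higher without passing the threshold.

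The list of β-catenin/TCF target genes held 28 genes, 6 of them among those described above. Of the 22 tested, 10 fell and 2 rose, against 14.8% and 13.5% of all genes, and the median log2 fold change was -0.41. Leaving out the genes already described, 7 fell and 2 rose of 17. The 2 were Ppard, from 13.8 ± 0.103 to 18.5 ± 1.05 FPKM, and Vegfa, from 29.4 ± 1.46 to 36.2 ± 2.33 FPKM (SD, n = 2 each). The limma adjusted p was 0.0152 for Ppard and 0.0385 for Vegfa. Ccnd1, the G1 cyclin, fell from 107.5 ± 0.549 to 50.9 ± 2.23 FPKM, and Tnfrsf11b, the RANKL decoy osteoprotegerin, from 20.2 ± 1.56 to 7.66 ± 0.651 FPKM (SD, n = 2 each), with limma log2 fold changes of -1.07 and -1.29 (adjusted p = 0.00221 and 0.00343). Feedback genes and other Wnt targets of this list differed among themselves. Tnfrsf19, a receptor of the TNF family, fell from 4.43 and 3.85 FPKM to 1.99 and 1.59 FPKM (limma adjusted p = 0.0129). Apcdd1, an inhibitor of Wnt receptors, was at 4.11 and 2.95 FPKM and at 2.40 and 1.76 FPKM, and Bambi, a decoy receptor of the TGF-β family, at 1.58 and 1.42 FPKM and at 0.813 and 0.821 FPKM, both lower in each siZBP1 sample without passing the threshold (limma adjusted p = 0.0893 and 0.0570). Rnf43 was at 1.85 and 1.38 FPKM and 1.60 and 1.36 FPKM, Znrf3 at 2.75 and 2.56 FPKM and 2.51 and 2.91 FPKM, and Lgr5 at 1.94 and 1.54 FPKM and 1.67 and 1.47 FPKM, for siScr and siZBP1 replicates in turn. The values of Rnf43, Znrf3 and Lgr5 overlapped between groups. Sp5, Notum and Dkk1 were too low to be tested, with Notum at 0.243 and 0.202 FPKM in siScr cells and at 0 and 0.0516 FPKM in siZBP1 cells. The number of target genes called lower was 6 without siScr replicate 1, 0 without siZBP1 replicate 1 and 1 without siZBP1 replicate 2.

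In the CCN family of matricellular proteins, 5 of 5 tested genes fell, Wisp1 included, against 14.8% of all genes. Without Wisp1 it was 4 of 4. The median log2 fold change of the 5 was -0.94. Wisp2, which lacks the C-terminal domain of the family, fell from 136.5 ± 14.7 to 40.3 ± 0.210 FPKM, or -1.73 on the log2 scale (limma adjusted p = 0.00231). Ctgf fell from 342 ± 27.0 to 125.8 ± 9.39 FPKM, Cyr61 from 137.0 ± 5.13 to 71.0 ± 0.118 FPKM, and Nov from 2.46 ± 0.433 to 0.970 ± 0.0849 FPKM (SD, n = 2 each). Ctgf and Cyr61 are best known as targets of YAP. Wisp3 was at 0 to 0.136 FPKM. All 5 calls were lost without either siZBP1 replicate.

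Of 30 genes commonly used as MYC targets, in nucleolar work, translation and nucleotide synthesis, 29 were tested. 19 fell and 0 rose, against 14.8% and 13.5% of all genes, and the median was -0.26. Like the other lists, this one was chosen with earlier results of these data known, so that the shares give no independent comparison. Cad, which starts pyrimidine synthesis, fell from 8.58 ± 0.444 to 4.33 ± 0.111 FPKM, Nop58, a core protein of box C/D particles, from 30.3 ± 0.109 to 17.4 ± 0.550 FPKM, and Rrp9, which processes ribosomal RNA, from 12.1 and 11.7 to 6.69 and 6.76 FPKM in its replicates (SD, n = 2 each, for the means). The limma adjusted p was 0.00536, 0.00324 and 0.00471 for these 3 genes. The count was 12 in limma without a variance trend, 9 without siScr replicate 1 and 0 without either siZBP1 replicate. In the MYC and MAX network, 1 of 11 tested genes fell, Myc itself, and 1 rose, against 14.8% and 13.5% of all genes. Mxd1, which competes with MYC for MAX, rose from 2.86 and 2.56 FPKM to 4.82 and 4.78 FPKM (limma adjusted p = 0.0127). Max itself was at 50.6 ± 0.823 FPKM in siScr cells and 53.6 ± 1.48 FPKM in siZBP1 cells (SD, n = 2 each), which did not pass (limma adjusted p = 0.235). Of 12 proliferation genes 0 passed the limma threshold and all 12 overlapped between groups, against 3785 of all 11959 genes tested. Mki67 was at 12.8 and 26.0 FPKM in siScr cells and at 21.8 and 24.2 FPKM in siZBP1 cells. For all 12, siScr replicate 1 was below and siScr replicate 2 above both siZBP1 values. This spread between the controls limits what the list could show.

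**Figure D4:**
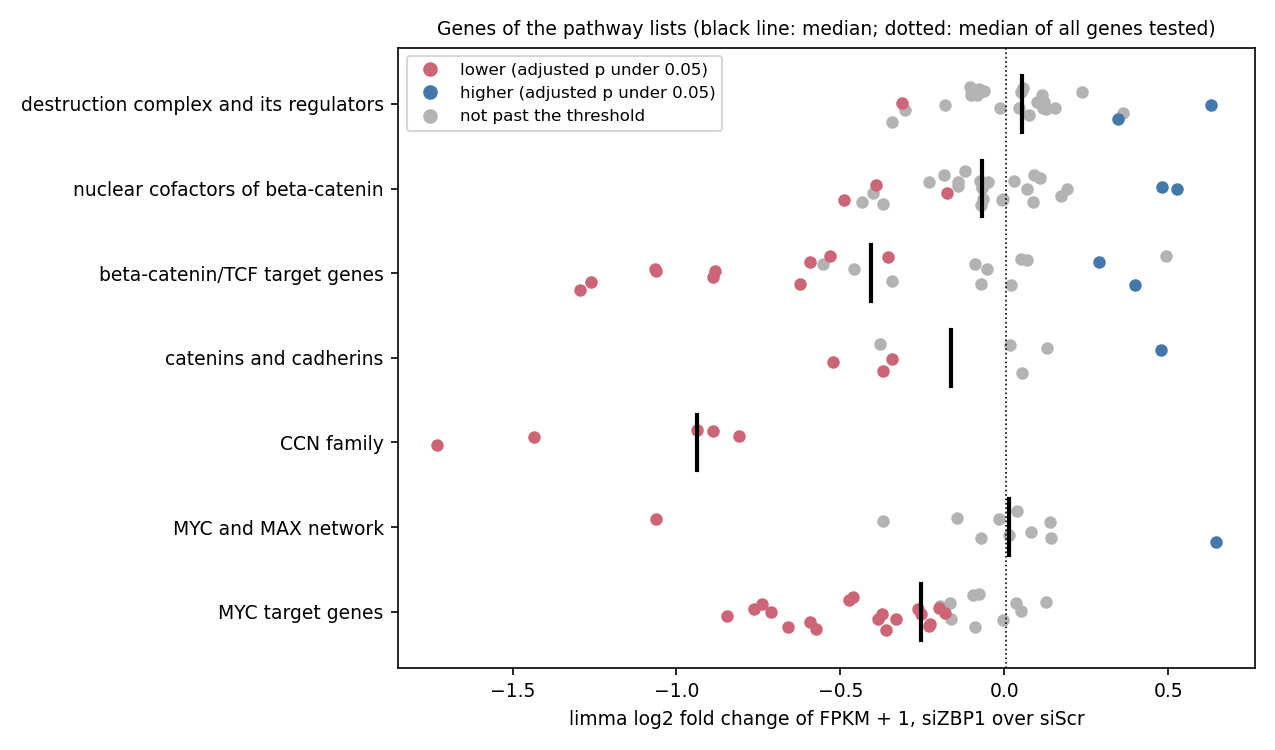
Limma log2 fold changes of FPKM + 1 (horizontal axis, siZBP1 over siScr) for the tested genes of 7 lists (rows), each point a gene, with black lines at list medians and a dotted line at the median of all tested genes. The CCN family, the β-catenin/TCF targets and the MYC targets lie mostly to the left, with medians of -0.94, -0.41 and -0.26. The destruction complex and its regulators have a median of 0.05.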

How the data were processed

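Libraries of 4 samples, 2 per group, were made with the Illumina TruSeq kit. The authors mapped reads with TopHat to mm10 and deposited FPKM values per gene symbol. Their methods name HTSeq for these values and the labels list Cufflinks. The annotation, any filter and the reads behind a value are not given in the sources used here. The deposited group means equal the means of the replicates and were not used. Genes whose FPKM averaged at least 1 across the 4 samples entered a fit of log2(FPKM + 1) in limma 3.58.1 under R 4.3.3, which used a variance trend and no replicate block. P-values were adjusted by Benjamini-Hochberg, with a threshold of 0.05, and the fit was tested on simulated data. A log2 fold change on this scale understates the change of low genes. Depth was estimated from the lowest FPKM times length of 1672 genes with a single long GENCODE M21 transcript, and is approximate. Positions are from GENCODE M21 on GRCm38, the assembly of mm10, and Wisp1 was matched to Ccn4 through RefSeq synonyms.

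The 10 genes, the lists and the markers were chosen with earlier results of these data known. Named genes are Zbp1, the 10 genes, 4 paralogs (Jup, Nkd1, Mycn and Mycl), the 3 genes with the largest change past the threshold in each list, all of the CCN family, the 3 nearest profiles of Tcf7, Myc and Wisp1, and markers that define a cell type (Csf1r, Pdgfrb, Cd3d, Cd3e and Cd3g). Col1a1, Lyz2, Il7r, Cd28, Cd4, Gsk3b, Csnk1a1, Tnfrsf19, Apcdd1, Bambi, Ppard, Vegfa, Rnf43, Znrf3, Lgr5, Sp5, Notum, Dkk1, Max, Mki67 and Ulk4 were named after their values were seen, and the marker sums without the most abundant gene were added then. Nt5e was likewise named after its values were seen. Python 3.11.15 was used with pandas 2.3.3, numpy 2.4.6 and matplotlib 3.10.9.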

Additional observations from a re-analysis of the deposited data

How the results depend on the processing

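Leaving out any of the 4 samples puts a lone sample in a group, whose spread is taken from the group that keeps 2. Over the samples left out, the number of the 10 genes called lower ranged from 0 to 2 and of those called higher stayed at 0. All genes called lower ranged from 23 to 1297 and all genes called higher from 22 to 1019. CCN family genes called lower ranged from 0 to 5, β-catenin/TCF target genes from 0 to 10 and MYC target genes from 0 to 14. The alternatives for these 3 lists were added after their values had been seen. Of the 10 genes, 3 to 4 were over 1.5-fold lower and 0 to 1 over 1.5-fold higher, the 0 being without siZBP1 replicate 2. Of 120 results for single named genes with a sample left out, 61 kept direction and side of the threshold, 57 lost the call and 2 changed sign. With all samples, 252 of 261 kept both, and 6 lost the call, 3 of Apc and 3 of Pygo1. Without a variance trend, 5 of the 10 genes were lower, with Tcf7l1 and Axin2 added, and 12 MYC target genes. Adding 1 to the means before the ratio left 0 genes over 1.5-fold higher. The log2 fold change of Axin1 ranged from -0.0575 to 0.0322 over the samples left out, with 0.0218 without siScr replicate 1 and 0.0322 without siZBP1 replicate 2, and was 0.0009 with quantile normalization, never past the threshold. The causes were not tested. The calls of Tcf7, Myc and Wisp1 held in every alternative with all samples that tested them, and a minimum mean of 5 FPKM took Tcf7 out of the test.

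The replicate numbers are shared by both groups but are not said to pair the samples. Same-numbered samples did not deviate together (correlation of -0.063 over tested genes). With the replicate block, 1654 genes were lower and 1465 higher, and 3 of the 10 genes were lower. The call of Pygo1 was lost (limma adjusted p = 0.0718), and no other call of the genes named by the rule changed.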
